A study of Mus musculus with 8 samples.

Results

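The genes that copy DNA in S phase were examined in sorted intestinal stem cells of mice with an inducible stabilised β-catenin and either both copies or a single copy of Mll1 open to deletion. The set held 44 genes of the 53801 in the deposited count table, chosen by symbol for their roles in replication, and all 44 passed the filter on low counts. In the 4 libraries labelled β-catGOF; Mll1-/-, 40 of the 44 genes had a higher fitted level than in the 4 libraries labelled β-catGOF; Mll1+/-, against 50.8% of the 16445 genes tested. No member passed the adjusted threshold on its own in the main test (edgeR). DESeq2's Wald test called *Mcm3*, *Chaf1b* and *Mcm5*, where it called 2.4% of all genes. The median difference in the main fit was 0.33 on the log2 scale, against 0.0076 over all genes tested.

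All 8 mice carried Lgr5-EGFP-IRES-CreERT2, which drives GFP and a tamoxifen-dependent Cre from the stem cell gene *Lgr5*, together with a β-catenin allele from which Cre removes the exon needed for its degradation (β-catGOF). The mice with Mll1 flox/flox alleles are called β-catGOF; Mll1-/- after induction, and those with Mll1 flox/+ are called β-catGOF; Mll1+/-. Tamoxifen was injected at 50 mg/kg on 3 consecutive days in mice of 4 to 6 weeks, and cells were taken 10 days after induction. The controls therefore carried β-catGOF and a floxed copy of Mll1 too, and no library without β-catGOF was analysed here. Crypt cells were stained for EpCAM (epithelium), CD45 (blood cells) and CD24, whose gates are not given in the sources used here, Lgr5-GFP+ cells were sorted, and 300 cells of 1 mouse went into each Smart-seq2 library. The Cre acts in a part of the crypts, so that crypts without recombination remain in these mice, and both sexes were used.

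The libraries held 14468751 to 16847793 counts on genes each. *Epcam* stood at 1255 to 1697 CPM (counts scaled to the size of the library after TMM correction), *Lgr5* at 215 to 308 CPM, and the blood cell gene *Ptprc* at 0 to 0.957 CPM. *Kmt2a*, which encodes Mll1, was at 59.5, 62.6, 78.5 and 53.5 CPM in the Mll1-/- libraries and at 50.2, 64.9, 51.2 and 48.9 CPM in the Mll1+/- libraries. Its log2 fold change was 0.24 (SE 0.17, adjusted p = 0.710, edgeR), so its count over the whole gene was not lower under the Mll1-/- label, deletion of the floxed exons could not be checked, and genotypes are named here by the labels. By their library numbers, which the count table lists in its header, the libraries fell into 2 sets with 2 libraries of each genotype, J_7075, J_7079, J_7096 and J_7100 in the first and J_7134, J_7135, J_7136 and J_7139 in the second. J_7135 stood apart, with a highest Spearman correlation over genes of 0.909 to any other library, where the others reached at least 0.947, and counts are therefore also given without it.

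Replication begins when the origin recognition complex, with Cdc6 and Cdt1, loads rings of Mcm2 to Mcm7 onto DNA in G1 phase. At the start of S phase, Cdc45 and the GINS complex turn these rings into active helicases, and DNA polymerases, held by the sliding clamp Pcna, copy the strands they open. Many of these genes share control by E2F factors, which Rb holds in check until cyclin-dependent kinases release them. In the intestinal crypt, Lgr5-GFP+ stem cells and their transit-amplifying progeny divide steadily and so express this machinery. A library from a pool of cells cannot tell a larger share of cells in S phase from more transcript in each cell.

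Because E2F factors are known to bind the letters TTTCCCGC, TTTCGCGC, TTTGCCGC or TTTGGCGC, the RefSeq promoter windows (250 bases before to 50 bases after the start, GRCm38.p6) were searched on both strands for these 8 letters and for the shorter form of 7 letters that remains without the leading T. Every match of the longer form therefore also counts as a match of the shorter. A window was at hand for 36 of the 44 members. The shorter letters were found in 22 of these 36 genes (61.1%), in 10.9% of the 27025 genes in the promoter table and in 13.7% of its 17491 protein-coding genes. The longer letters were found in 12 members (33.3%), in 2.6% of all genes and in 3.3% of protein-coding genes. The stretches below come from the loading factors, the ring subunits, the ligase and the chromatin assembly gene described next, and are shown to make these letters visible. Capitals mark the 7-letter matches, which can lie on either strand and can overlap, and each line reads 5′ to 3′ on the strand of the gene.
Orc1: tttcggttagtgGCGCGAAaagttttctcc
Cdc6: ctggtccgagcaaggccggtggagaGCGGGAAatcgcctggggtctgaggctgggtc
Cdt1: atccGCGGGAActacctttTTGGCGCcatg
Mcm3: GCGGGAAaacttgggaagttTTGGCGCCAA
Mcm5: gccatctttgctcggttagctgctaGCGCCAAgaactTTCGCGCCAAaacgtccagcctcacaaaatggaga
Mcm6: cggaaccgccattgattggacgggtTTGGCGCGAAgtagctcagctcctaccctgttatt
Mcm7: gtgacgacgtTTCGCGCCAAtttcggttgg
Lig1: aagtgcGCGCGAAatctgtgtgGCGCGAAt
Chaf1b: ggcctgcggcgcGCGGGAAgctgcgggctg
These stretches lie at chr4:108579415-108579444 (plus strand) for *Orc1*, chr11:98907988-98908044 (plus) for *Cdc6*, chr8:122568029-122568058 (plus) for *Cdt1*, chr1:20820264-20820293 (minus) for *Mcm3* and chr8:75109320-75109391 (plus) for *Mcm5*. Those of the remaining genes lie at chr1:128359717-128359776 (minus) for *Mcm6*, chr5:138171847-138171876 (minus) for *Mcm7*, chr7:13278846-13278875 (plus) for *Lig1* and chr16:93883915-93883944 (plus) for *Chaf1b*. In *Mcm3*, *Mcm5*, *Mcm6* and *Mcm7*, matches on opposite strands run into each other, and *Mcm3* and *Mcm5* each hold 3 matches within the stretch shown. The windows of *Ccne1*, *E2f1*, *Cdc45*, *Mcm2*, *Mcm10* and *Pcna* held none of the 7-letter forms. Neither did those of *Orc6*, *Pola2*, *Rfc5*, *Rpa1*, *Tyms*, *Tk1*, *Dut* and *Slbp*. CCAAT, the letters bound by NF-Y, was found in 22 of the 36 members (61.1%) and in 41.1% of all genes. Among the 13 members with an unadjusted p under 0.05, 6 of the 12 with a window held the 7-letter form, and among the other 31 members 16 of 24 did. A match is a description of the letters and not of binding.

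The members were expressed at very different levels per length. On the scale of CPM per kb of counted exons, the median member lay at the 78.5th percentile of the genes tested. *Rpa3*, the small subunit of the single-strand DNA binding protein RPA, had the highest level with 109 ± 11.4 CPM per kb (SD, n = 8), followed by the clamp loader subunit *Rfc4* with 81.3 ± 17.4, *Dut*, which clears dUTP from the nucleotide pool, with 75.5 ± 14.5 and the GINS subunit *Gins1* with 70.4 ± 7.22. The ranges of these neighbours over the 8 libraries overlapped, so their order was not resolved. *E2f1* (1.58 ± 1.18), *Chaf1a* (1.78 ± 1.32) and *Pole* (2.62 ± 0.856) were near the low end. *Fen1*, the nuclease that trims Okazaki fragments, was last with 0.747 ± 0.475 CPM per kb, and 84.2% of its exonic bases lie on the opposite strand of *Gm10143*. Reads on both genes were left out of these unstranded counts, so the level of *Fen1* is a lower limit, and the same holds for *Gins2*, which shares 67.3% of its exonic bases with *Gse1*.

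**Figure D1:**
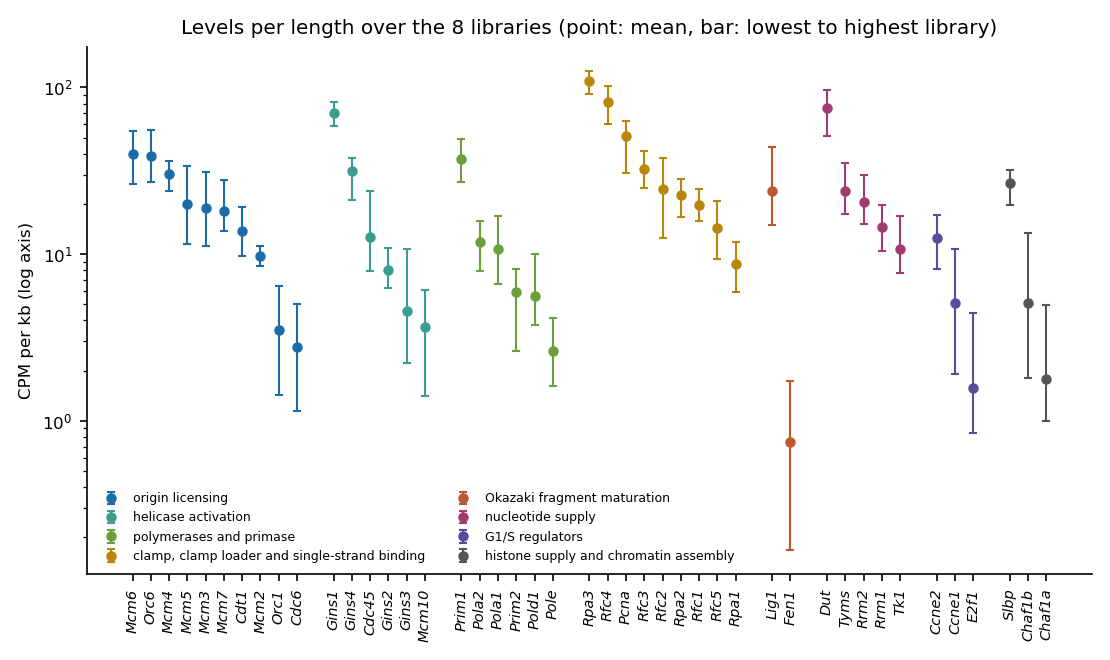
Mean level of each of the 44 members in CPM per kb of counted exons on a log axis, grouped and coloured by role, with bars from the lowest to the highest of the 8 libraries. *Rpa3* is highest at 109 CPM per kb and *Fen1* lowest at 0.747, and the bars of most neighbours overlap.

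Subunits of the same complex were not at equal levels. In the Mcm2 to Mcm7 ring, in which each subunit occurs once, *Mcm6* had 39.9 ± 9.03 CPM per kb, *Mcm4* 30.1 ± 4.62, *Mcm5* 19.9 ± 7.10, *Mcm3* 18.8 ± 7.41, *Mcm7* 18.2 ± 4.60 and *Mcm2* 9.69 ± 1.02 (SD, n = 8). *Mcm2* lay below *Mcm7* in every library, while the ranges of the other neighbours overlapped. Among the clamp loader subunits, *Rfc4* exceeded the highest library of *Rfc3* (32.5 ± 6.26 CPM per kb) in all 8 libraries, and in RPA the ranges of *Rpa3*, *Rpa2* (22.5 ± 4.07) and *Rpa1* (8.70 ± 2.29) did not overlap at all. In GINS, *Gins1* lay above *Gins4* (31.5 ± 5.31) in every library. The length of the longest coding transcript was also used as the divisor, an alternative chosen after seeing the data. By means over the 8 libraries, the highest and lowest subunit of each of these complexes kept its place. *Mcm7* moved from the fifth to the third place in the ring. By library, however, *Mcm2* then exceeded *Mcm7* in J_7075, and *Mcm3* in J_7096 and every Mll1+/- library. *Rfc3* then exceeded *Rfc4* in J_7075, J_7100 and J_7134, so these separations hold for counted exons only.

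*Mcm7* shares 33.4% of its 31-base words with other transcripts, and *Pcna* shares 23.3% with *Pcna-ps2*, so reads of these genes can be lost or exchanged. *Chaf1a* shares 51.0% of its words with other transcripts, nearly all with *Ubxn6* on the opposite strand, which overlaps 18.7% of its counted exonic bases, and its level is uncertain for this reason. Of the 44 members, 28 had no exonic base on another gene, and 13 had over 5% of them there. Among these were *Ccne2* (17.4%), *Rfc2* (15.1%) and *Rfc4* (12.6%), whose levels can be too low for the same reason as that of *Fen1*. *Rpa3* shares 13.4% of its words with other transcripts. The fewest counts of any member in a library were 7, for *Fen1*, and 38 members had at least 100 counts in every library. Within a genotype, the median coefficient of variation was 22.6% in the Mll1-/- libraries and 21.6% in the Mll1+/- libraries.

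Between the genotypes, edgeR's quasi-likelihood test called 14 genes of 16445 (0.0851%) at an adjusted p under 0.1, and none was a member. The smallest adjusted p of a member was 0.200, for *Mcm3*. An unadjusted p under 0.05 was reached by 13 members, and in all 13 the Mll1-/- libraries were higher. Over all genes tested, 5.4% were higher and 3.75% were lower at this p. In 6 members, *Cdt1*, *Mcm3*, *Mcm5*, *Lig1*, *Ccne1* and *Chaf1b*, every Mll1-/- library lay above every Mll1+/- library, where 3.34% of all genes tested did so, and in no member did every library lie below, where 2.94% did. A complete separation of 4 from 4 libraries corresponds to p = 0.0286 in an exact permutation test (two-sided) over all 70 assignments, and no arrangement gives less. These assignments take no account of the library sets. These 6 genes lie in the count table's annotation (mm10, Ensembl 92) at chr8:122568015-122573554 (plus strand) for *Cdt1*, chr1:20802968-20820312 (minus strand) for *Mcm3* and chr8:75109569-75128439 (plus strand) for *Mcm5*. The rest lie at chr7:13277283-13311433 (plus strand) for *Lig1*, chr7:38097984-38107534 (minus strand) for *Ccne1* and chr16:93883901-93906115 (plus strand) for *Chaf1b*, and counts were summed over all exons of each gene. DESeq2's Wald test called 394 of 16406 genes (2.4%) at the same threshold, of which 231 (1.41%) were higher in the Mll1-/- libraries, and 3 members were among the latter, *Mcm3* (adjusted p = 0.0035), *Chaf1b* (0.0057) and *Mcm5* (0.029). Without J_7135, 40 of the 44 members were still fitted higher, 12 had an unadjusted p under 0.05 and 9 did not overlap, all of them higher, while 4.73% and 5.34% of all genes were higher by these criteria.

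**Figure D2:**
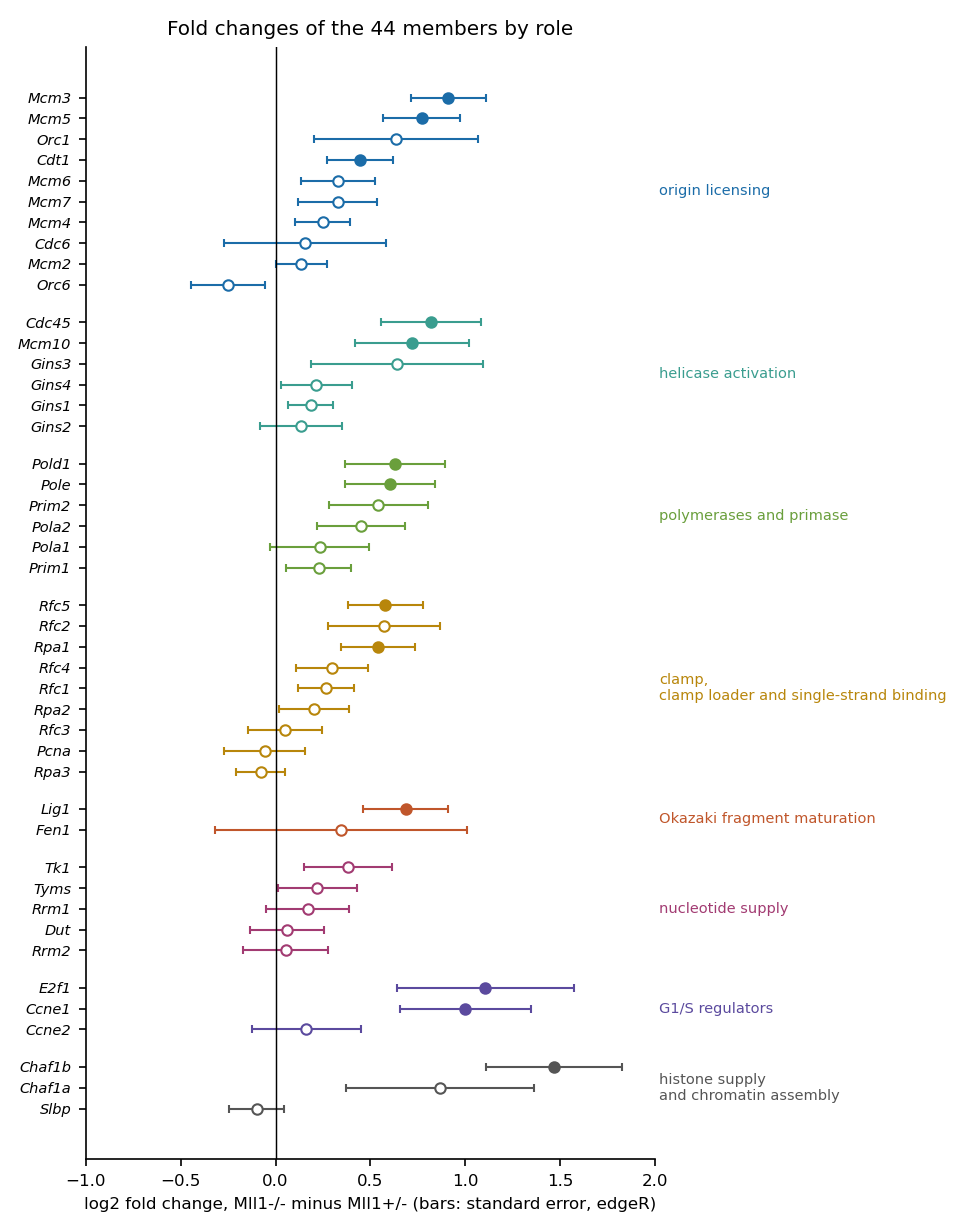
Log2 fold change of each of the 44 members, Mll1-/- against Mll1+/- libraries, with standard errors from edgeR, grouped by role. Filled points have an unadjusted p under 0.05. Of the 44 points, 40 lie right of 0, and the 13 filled points all do.

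Within the first library set, 42 of the 44 members were higher in the Mll1-/- libraries (49.4% of all genes tested were), with a median log2 difference of 0.41. Within the second set, 32 members were higher (47.7% of all genes), with a median of 0.26. The mean log2 deviation of the members from their own 8-library means was 0.17 in J_7075, 0.048 in J_7096, 0.30 in J_7135 and 0.22 in J_7136. In the Mll1+/- libraries it was -0.35 in J_7079, -0.32 in J_7100, -0.089 in J_7134 and 0.0073 in J_7139. The lowest Mll1+/- values were thus in the first set, and J_7139 came close to J_7096. Summed over the 44 members, the Mll1-/- libraries held 3585 ± 214 CPM and the Mll1+/- libraries 2966 ± 420 CPM (SD, n = 4), and the groups overlapped, since J_7139 with 3477 CPM exceeded J_7096 with 3333 CPM. Mitochondrially encoded genes took 18.9, 22.3, 17.1 and 27.1% of the counts in the Mll1-/- libraries J_7075, J_7096, J_7135 and J_7136 and 24.9, 28.7, 30.1 and 23.3% in the Mll1+/- libraries J_7079, J_7100, J_7134 and J_7139. J_7135 had the lowest share and the highest sum of the members. With these genes left out of the fit, 40 members were fitted higher, 13 had an unadjusted p under 0.05 and 7 did not overlap, all higher. Of the 16425 genes in that fit, 50.7% were fitted higher, 5.38% were higher at this p and 3.32% were higher without overlap.

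**Figure D3:**
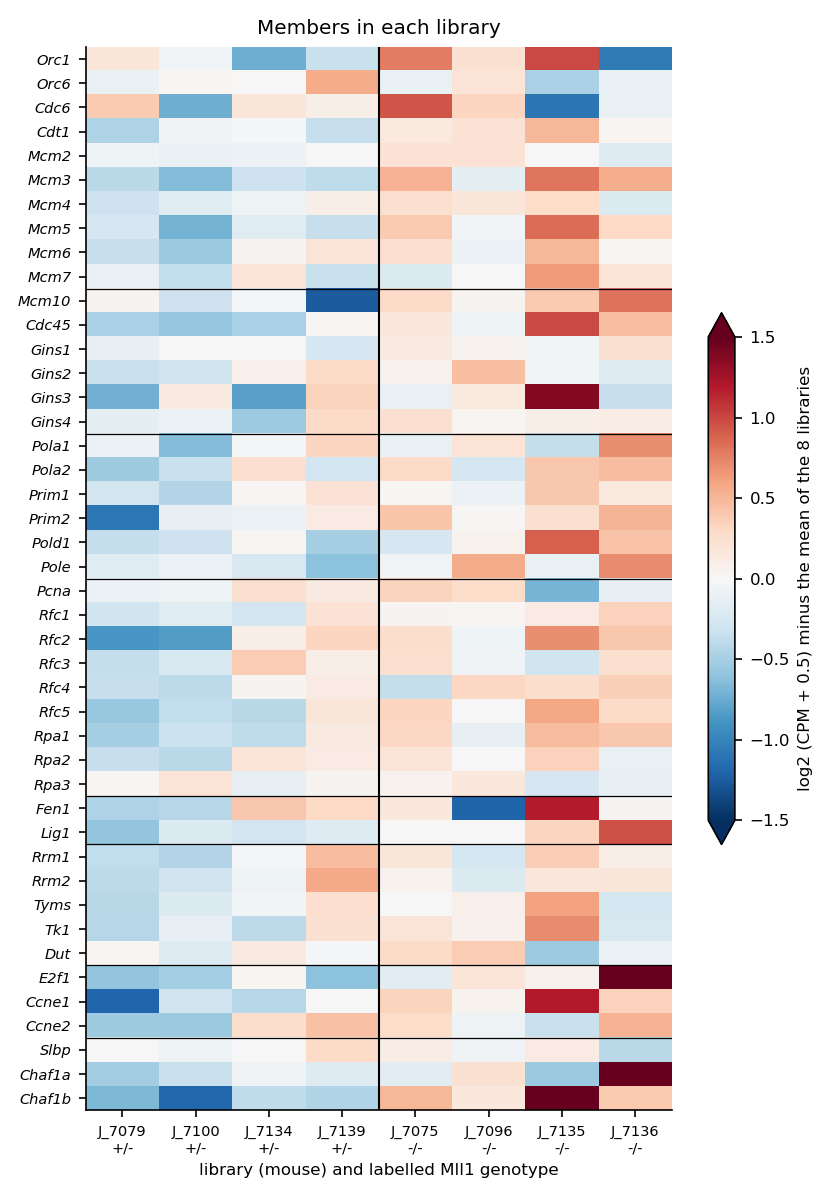
Log2 (CPM + 0.5) of each member in each library minus the mean of that member over the 8 libraries, with Mll1+/- libraries on the left, Mll1-/- libraries on the right and lines between roles. J_7079 and J_7100 are below the mean in nearly all members (5 and 4 of 44 are above), and 18 are above it in J_7134 and 29 in J_7139. In the Mll1-/- libraries J_7075, J_7096, J_7135 and J_7136, 33, 27, 32 and 30 are above it, so J_7139 lies among them.

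In the paragraphs that follow, values are in TMM-scaled CPM and are listed for the Mll1-/- libraries J_7075, J_7096, J_7135 and J_7136 and then for the Mll1+/- libraries J_7079, J_7100, J_7134 and J_7139. For each group of members by role, the share of all genes tested that were fitted higher was 50.8%. Of the 10 licensing genes, 9 were fitted higher in the Mll1-/- libraries, with a median log2 fold change of 0.33. In 3 of them every Mll1-/- library lay above every Mll1+/- library, where 3.34% of all genes tested did so. *Mcm3* (ENSMUSG00000041859), a ring subunit that sits next to Mcm5, was at 95.5, 60.5, 116 and 96.9 CPM and at 50.0, 42.1, 53.5 and 50.6 CPM. All 4 Mll1-/- libraries were above the highest Mll1+/- library, J_7096 least so. The means of 92.2 ± 23.1 and 49.0 ± 4.86 CPM (SD, n = 4) gave a 1.88-fold difference, a log2 fold change of 0.91 (SE 0.20, adjusted p = 0.200, edgeR), and the log2 difference was 0.72 in the first library set and 1.02 in the second.

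*Mcm5* (ENSMUSG00000005410) had 99.3, 73.3, 135 and 92.9 CPM in the Mll1-/- libraries and 63.0, 46.0, 66.4 and 59.2 CPM in the Mll1+/- libraries. J_7135 was the highest and J_7100 the lowest, and the groups did not overlap. The log2 fold change was 0.77 (SE 0.20, adjusted p = 0.282). *Cdt1* (ENSMUSG00000006585), which brings the ring to the origin and is destroyed once S phase starts, was at 46.9, 49.5, 60.0 and 43.1 CPM against 30.7, 41.0, 41.7 and 33.2 CPM. The groups did not overlap but came close, J_7136 lying just above J_7134, and the log2 fold change was 0.45 (SE 0.17, adjusted p = 0.496).

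The other ring subunits overlapped between the genotypes. *Mcm6*, the licensing gene with the highest level per length, was at 216, 171, 256 and 186 CPM and 143, 123, 186 and 208 CPM. J_7139 exceeded J_7096 and J_7136, so the groups overlapped, and the log2 fold change was 0.33 (SE 0.19, adjusted p = 0.652). The log2 fold changes of the remaining subunits were 0.25 for *Mcm4* (SE 0.14), 0.33 for *Mcm7* (SE 0.21) and 0.14 for *Mcm2* (SE 0.13), none at an unadjusted p under 0.05. As a share of the summed level per length of the 6 ring subunits, *Mcm3* made up 12.1 to 18.0% in the Mll1-/- libraries and 10.5 to 12.2% in the Mll1+/- libraries, and *Mcm5* 13.7 to 17.5% and 11.6 to 14.5%. *Mcm2* made up 5.03 to 8.41% and 7.06 to 9.16%, and the ranges of all 6 subunits overlapped between the genotypes. Of the initiator genes, *Orc1*, a subunit that marks origins and is made anew in G1 phase, had a log2 fold change of 0.63 (SE 0.43), *Cdc6* of 0.16 (SE 0.43) and *Orc6* of -0.25 (SE 0.19), and *Cdc6* had a difference of 0.80 in the first set and -0.73 in the second.

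All 6 genes of helicase activation were fitted higher, with a median of 0.43, and none separated the genotypes completely. *Cdc45* (ENSMUSG00000000028), part of the active helicase, was at 30.3, 25.4, 54.0 and 36.9 CPM and 19.0, 17.8, 19.1 and 27.2 CPM. The Mll1-/- library J_7096 fell just under the Mll1+/- library J_7139, and the other libraries separated. Its log2 fold change was 0.82 (SE 0.26, unadjusted p = 0.0122, adjusted p = 0.426).

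*Mcm10*, which helps to start the helicase and does not belong to the ring, was at 32.2, 27.2, 34.7 and 46.6 CPM and 27.2, 21.2, 26.1 and 10.8 CPM. J_7139 was far below the rest and J_7136 was the highest, and J_7079 reached the level of J_7096. Its log2 fold change of 0.72 (SE 0.30, adjusted p = 0.526) was 0.50 without J_7139. In GINS, *Gins3* had 10.1, 12.2, 29.2 and 8.47 CPM and 6.46, 12.02, 6.02 and 13.9 CPM. J_7135 held more than any other library, and the other Mll1-/- libraries lay within the range of the Mll1+/- libraries. Its log2 fold change of 0.64 (SE 0.45) was 0.091 without J_7135. *Gins1*, the GINS gene with the highest level, was at 117, 110.3, 103 and 125 CPM and 97.9, 106, 107 and 88.8 CPM, a narrow range in both genotypes, with a log2 fold change of 0.18 (SE 0.12).

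The polymerase and primase genes were fitted higher in all 6 cases, and also within each library set, with a median log2 fold change of 0.50. *Pold1*, the catalytic subunit of the lagging-strand polymerase, had a log2 fold change of 0.63 (SE 0.26, unadjusted p = 0.0398) and *Pole*, its leading-strand counterpart, of 0.60 (SE 0.24, unadjusted p = 0.0307). *Prim1*, the primase subunit that lays down RNA primers and the highest of the group per length, was at 144, 134, 189 and 158 CPM and 118, 105, 144 and 165 CPM. The groups overlapped, since J_7139 lay above 3 of the Mll1-/- libraries, and the log2 fold change was 0.23 (SE 0.17). *Prim2* (0.54, SE 0.26), *Pola2* (0.45, SE 0.23) and *Pola1* (0.23, SE 0.26), which make up the rest of the priming complex, did not reach an unadjusted p under 0.05.

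Of the 9 genes for the clamp, its loader and RPA, 7 were fitted higher and the median was 0.26. *Rfc5* (0.58, SE 0.20, unadjusted p = 0.0165) and *Rpa1*, the large DNA-binding subunit of RPA (0.54, SE 0.20, unadjusted p = 0.0212), were the members with the smallest p in this group. *Pcna*, the clamp itself and a common marker of cycling cells, had 151, 144, 73.6 and 109 CPM and 112, 114, 141 and 131 CPM. It was higher in both Mll1-/- libraries of the first set and lowest of all in J_7135, and its log2 difference was 0.38 in the first set and -0.59 in the second. *Rpa3*, the member with the highest level, was at 128, 137, 104 and 113 CPM and 126, 142, 114 and 127 CPM. The groups overlapped almost entirely, with a log2 fold change of -0.08 (SE 0.13). Subunits of RPA thus had fitted differences of 0.54, 0.20 and -0.08 for *Rpa1*, *Rpa2* and *Rpa3*, and no test of the difference between subunits was made.

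*Lig1* (ENSMUSG00000056394), the ligase that joins Okazaki fragments, was at 96.8, 96.4, 122 and 188 CPM and 64.0, 84.1, 79.6 and 84.8 CPM. J_7136 was the highest by far, and J_7075 and J_7096 lay just above the highest Mll1+/- library. The means of 126 ± 43.2 and 78.1 ± 9.72 CPM (SD, n = 4) gave a log2 fold change of 0.69 (SE 0.22, adjusted p = 0.429), which was 0.43 without J_7136. For *Fen1* the counts were too low to set a difference (0.35, SE 0.67).

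The 5 genes of nucleotide supply had the smallest differences, with a median log2 fold change of 0.17 and none at an unadjusted p under 0.05. All 5 were higher in the first library set and 3 in the second. *Dut* was at 218, 234, 123 and 169 CPM and 183, 157, 196 and 177 CPM. J_7135 was the lowest library of all, the groups overlapped, and the log2 fold change of 0.06 (SE 0.19) took the opposite sign in 3 of the alternatives. The ribonucleotide reductase subunits *Rrm1* (0.17, SE 0.22) and *Rrm2* (0.05, SE 0.22), the thymidylate synthase *Tyms* (0.22, SE 0.21) and the thymidine kinase *Tk1* (0.38, SE 0.23) overlapped between the genotypes too.

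Of the regulators of S phase entry, *Ccne1* (ENSMUSG00000002068), the cyclin E that activates Cdk2 at the end of G1 phase, was at 15.6, 12.7, 28.6 and 15.7 CPM and 5.09, 9.84, 8.98 and 12.3 CPM. The groups did not overlap, J_7096 lying just above J_7139. With means of 18.1 ± 7.09 and 9.06 ± 3.01 CPM (SD, n = 4), its log2 fold change was 1.00 (SE 0.35, adjusted p = 0.460), and it was 0.94 and 0.98 within the first and the second library set. *E2f1*, an activating E2F factor and itself an E2F target, was low, at 3.78, 4.98, 4.54 and 13.9 CPM and 2.69, 2.88, 4.41 and 2.65 CPM. A single library, J_7136, stood far above the rest, and J_7075 lay under J_7134, so the groups overlapped. The log2 fold change of 1.11 (SE 0.47, unadjusted p = 0.0413, adjusted p = 0.526) was 0.49 without J_7136. *Ccne2*, the second cyclin E, was at 51.0, 39.7, 33.2 and 60.2 CPM and 28.8, 28.3, 50.4 and 56.9 CPM. Low values were found in J_7135 and in the first-set Mll1+/- libraries J_7079 and J_7100, and the log2 fold change was 0.16 (SE 0.29).

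*Chaf1b* (ENSMUSG00000022945), a subunit of the chromatin assembly factor CAF-1 that places histones on newly made DNA, had the largest fold change of the 44 members. It was at 30.2, 23.7, 67.2 and 28.0 CPM and 13.2, 9.07, 16.2 and 15.4 CPM. Every Mll1-/- library was above every Mll1+/- library, and J_7135 was the highest. The means of 37.3 ± 20.1 and 13.5 ± 3.20 CPM (SD, n = 4) gave a 2.77-fold difference, a log2 fold change of 1.47 (SE 0.36, adjusted p = 0.249), which was 1.02 without J_7135, and the log2 difference was 1.25 in the first library set and 1.43 in the second. *Chaf1a*, its partner subunit, was at 4.48, 6.08, 3.30 and 16.5 CPM and 3.41, 3.94, 4.89 and 4.39 CPM. J_7136 alone was high and J_7135 was the lowest, and the log2 fold change of 0.87 (SE 0.50, adjusted p = 0.647) was 0.15 without J_7136. *Slbp*, which binds the end of replication-dependent histone transcripts, had 173, 154, 174 and 120.3 CPM and 159.6, 152, 159.9 and 195 CPM. The ranges overlapped, and the log2 fold change was -0.10 (SE 0.15).

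**Figure D4:**
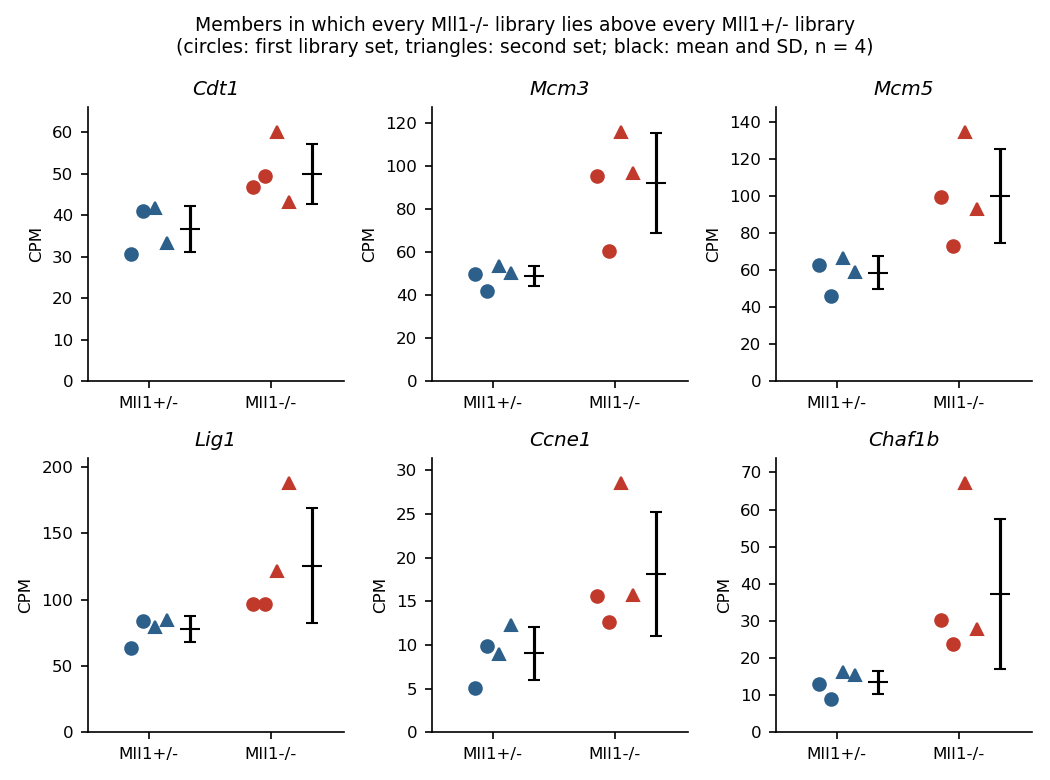
TMM-scaled CPM of the 6 members that did not overlap between the genotypes, 1 point per library, with circles for the first and triangles for the second library set and the mean and SD of 4 libraries in black. In *Cdt1*, *Mcm3*, *Mcm5*, *Ccne1* and *Chaf1b* the highest point is J_7135, and in *Lig1* it is J_7136.

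Other genes of the pathway were read from the same fit. Of 33 other replication genes (further origin, polymerase, checkpoint and fork genes), 24 were fitted higher, the median log2 fold change was 0.24, and 7 (21.2%) had an unadjusted p under 0.05, all higher, where 5.4% of all genes tested were. In 4 (12.1%) the groups did not overlap, all higher, where 3.34% of all genes did so. *Topbp1*, a scaffold for Cdc45 loading and for the Atr checkpoint, was at 106, 107, 114 and 101 CPM and 66.4, 78.6, 83.7 and 55.8 CPM. The lowest Mll1-/- library, J_7136, exceeded the highest Mll1+/- library, J_7134, and the log2 fold change was 0.59 (SE 0.15, adjusted p = 0.251). *Ticrr*, which works with Topbp1 at origins (0.56, SE 0.24), *Rnaseh2c*, a subunit of RNase H2 (0.59, SE 0.19), and *Ctc1*, a subunit of the telomere-capping CST complex (0.66, SE 0.24), were the others.

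Of 37 further E2F and S phase associated genes, 30 were fitted higher with a median of 0.25, 8 (21.6%) reached an unadjusted p under 0.05 and 4 (10.8%) did not overlap, all higher, against 5.4% and 3.34% of all genes tested. *E2f8*, a repressive E2F factor, had 21.1, 18.0, 21.7 and 16.0 CPM and 10.1, 15.2, 8.26 and 13.1 CPM. J_7136 lay just above J_7100, and the log2 fold change was 0.72 (SE 0.24, adjusted p = 0.449). *Tubg1* (0.62, SE 0.23), the mismatch repair gene *Msh6* (0.46, SE 0.14) and the maintenance DNA methyltransferase *Dnmt1* (0.38, SE 0.15) were the other genes without overlap.

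Genes of G2/M, which are used after DNA is copied, were mostly fitted higher too. Of 28 such genes, 27 were fitted higher with a median of 0.34, and 5 (17.9%) had an unadjusted p under 0.05, all higher, against 5.4% of all genes tested. A single gene, the mitotic kinase *Plk1* (0.74, SE 0.26, adjusted p = 0.467), did not overlap, and this share of 3.57% is near the 3.34% of all genes. All 28 were higher in the first library set (49.4% of all genes tested were) and 17 in the second (47.7%). Their median log2 difference was 0.52 in the first set and 0.10 in the second. Summed over the 28 genes, the Mll1-/- libraries held 2713 to 3834 CPM and the Mll1+/- libraries 1957 to 3203 CPM. *Mki67*, which marks cycling cells, had a log2 fold change of 0.13 (SE 0.22). The 7-letter E2F form was found in 16.7% and CCAAT in 83.3% of the 24 of these genes with a window. Whether the members differed from the G2/M genes was not tested.

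**Figure D5:**
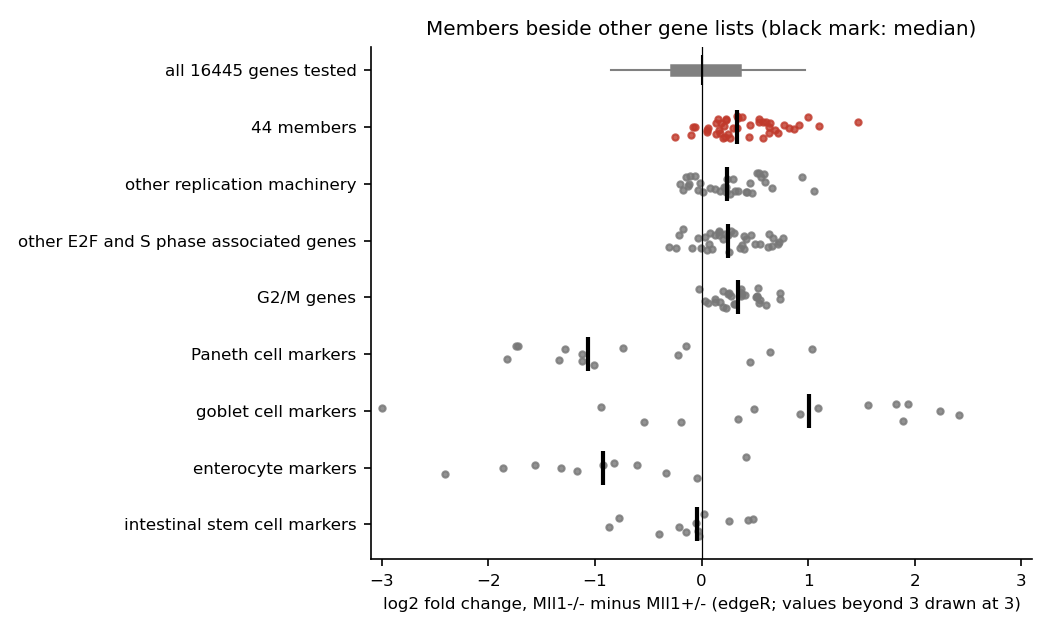
Log2 fold changes, Mll1-/- against Mll1+/- libraries, of the members and of the other gene lists, 1 point per gene, with the median in black. For all genes tested the thick grey bar spans the middle of the distribution from the 25th to the 75th percentile and the thin line the 5th to the 95th. The members, the other replication and E2F genes and the G2/M genes have medians from 0.24 to 0.34, and Paneth, enterocyte and goblet markers lie farther from 0.

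Markers of other crypt cells were also unequal between these libraries. The 14 Paneth cell markers summed to 1901 to 5576 CPM in the Mll1-/- libraries and 3660 to 6284 CPM in the Mll1+/- libraries, and 3 of the 14 were fitted higher (median -1.06). The 14 goblet cell markers summed to 756 to 1355 CPM and 664 to 867 CPM, with 10 of the 14 higher (median 1.01). Of the enterocyte markers, 1 of the 11 tested was higher (median -0.93), and of the enteroendocrine markers, 1 of 8 (median -1.38). The 12 stem cell markers, dominated by *Olfm4*, summed to 11094 to 17782 CPM and 23268 to 27810 CPM, with 4 of the 12 higher (median -0.046). Tuft cell markers summed to at most 11.9 CPM and immune and stromal markers to at most 14.1 CPM in any library, and no marker of these lists was at 0 in every library. Paneth and other post-mitotic cells do not replicate their DNA, and the part of these markers in the differences of the members was not tested.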

How the data were processed

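Per the labels, mRNA of sorted intestinal stem cells was sequenced from 8 mice. The authors aligned reads to mm10 with GSNAP and deposited raw counts per gene from featureCounts 1.6.3 (unstranded, uniquely mapped reads, Ensembl 92). They also deposited a table of signal, counts divided by 1 size factor per library (DESeq2 1.22.2). It was used here for symbols and to check the raw counts. Members and lists were chosen with earlier results of these data known.

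Counts were filtered with filterByExpr (10 counts, 15 in total), TMM-scaled and fitted with edgeR 4.0.16 (robust quasi-likelihood, genotype only, R 4.3.3), with Benjamini-Hochberg adjustment over 16445 genes and a threshold of 0.1. The common biological coefficient of variation was 0.435. A floor of 3 counts was 0.162 to 0.241 CPM. Reads carry no molecular identifiers, so depth covers counting error only. DESeq2 1.42.0, limma 3.58.1, other scalings and filters, library set, sex-linked transcripts and each library left out were alternatives. Scripts were tested on simulated data. Values per library were given for members without overlap, the 10 largest fold changes and the highest member per length of each role; of other lists, for genes without overlap, at most 5 per list. Promoters came from RefSeq (GRCm38.p6). Columns of coordinates and gene lengths in bases, deposited beside the counts, gave levels per kb.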

Additional observations from a re-analysis of the deposited data

Results flagged for a closer look

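In 3 of the 88 groups of 4 libraries examined on the log2 scale (44 members in 2 genotypes), the highest or lowest library stood apart from the rest by more than the 95% critical value of Dixon's test allows. Chance flags about 1 in 20 such groups. *Cdc45* was high in the Mll1+/- library J_7139 with 27.2 CPM. *Rfc4* was low in the Mll1-/- library J_7075 with 95.6 CPM. *E2f1* was high in the Mll1+/- library J_7134 with 4.41 CPM.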

How the results depend on the processing

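No member passed the adjusted threshold under any alternative but DESeq2's Wald test, which called 3. The number of genes called in all moved from 14 to 8 with upper quartile scaling, 47 with every gene counted at least 1 time, 34 with at least 10 counts in every library, 394 with DESeq2 and 103 with limma-voom. It was 0 with library set as a term and with sex-linked transcripts as a covariate (edgeR), where 1642 and 1660 genes had an unadjusted p under 0.05, and 0 to 45 when 1 library was left out (1189 to 1847 at an unadjusted p under 0.05). The cause of these moves was not tested. Sex is not labelled, and with the sex-linked covariate 37 members were fitted higher and 10 had an unadjusted p under 0.05, all higher. Members without overlap numbered 7 to 13 when 1 library was left out, and the share of all genes with every Mll1-/- library above rose too, from 3.34% to between 4.55 and 5.46%, since fewer libraries have to separate. All were higher except *Orc6*, which was lower without overlap when J_7096 was left out. The number of members fitted higher stayed between 37 and 41 and their median log2 fold change kept its sign in every alternative run. An unadjusted p under 0.05 was reached by 13 members in the main fit, and by 9 without J_7079 and 9 without J_7100, all higher. Of all genes tested, 4.24% and 4.15% were higher at this p without these libraries. The members' median log2 fold change was then 0.28 and 0.23. *Dut* turned to -0.058 with the sex-linked covariate, -0.029 without J_7075 and -0.068 without J_7096, and *Slbp* to 0.0059 without J_7136, in ranges over the libraries left out of -0.068 to 0.217 and -0.162 to 0.0059. Other scalings moved the median of all genes by -0.0069 to 0.0059. Scaling to spike-ins was not run, since no library held more than 36 spike-in counts. No paired analysis was possible because the labels give each mouse its own number.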
